A study of Mus musculus with 2 samples.

Results

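Prostaglandin E2 is a lipid signal that epithelial cells and their neighbours make from arachidonic acid, and 10 of the 31053 genes in the deposited gene list that make it, export it, degrade it or receive it were described here. They were chosen by name, but with earlier results of these data known. They were the cyclooxygenases Ptgs1 and Ptgs2, the prostaglandin E synthases Ptges, Ptges2 and Ptges3, the exporter Abcc4, the degrading enzyme Hpgd and the receptors Ptger1, Ptger3 and Ptger4. The samples were organoids of mouse small intestine, that is, self-organised epithelium kept in culture, labelled control or melatonin-treated; no strain, genotype, age or dose is used here. Per the labels' protocols, cells of 3 organoid lines were pooled for each of the groups on culture day 3, so that a library is a mixture of lines, and droplet-based 3' single-cell libraries were sequenced. The title of the series sets melatonin beside prostaglandin E2 in epithelial regeneration that depends on the regulator YAP.

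The files deposited for the 2 samples were identical in 3 of 3 cases and hold a single matrix, whose barcodes end in the suffix 1 or 2. No source used here says which suffix belongs to which treatment, so the matrix was handled as 1 sample and melatonin was not compared with control. Barcodes of suffix 1 (set 1) and suffix 2 (set 2) are given side by side, the direction between them is arbitrary, and no test was possible with 1 sample.

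Cyclooxygenases turn arachidonic acid into the intermediate prostaglandin H2, and prostaglandin E synthases convert that intermediate to prostaglandin E2. The exporter ABCC4 can carry the product out of the cell, and the dehydrogenase encoded by Hpgd oxidises it to an inactive form. Of the receptors, EP2 and EP4 raise cyclic AMP, EP3 mostly lowers it and EP1 acts mainly through calcium; in intestine, stromal cells are a known source of the lipid and the epithelium a known target.

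RefSeq promoter windows were matched by symbol for 9 of the 10 genes, on build GRCm38.p6. The 250 bases before the annotated start are printed for 3 genes that were called higher in 3 different cell classes in the values that follow: Ptger3, Hpgd and Ptgs2. Bases are in lower case, 5′ to 3′ on the gene's strand, with every match to the E-box letters CANNTG in capitals; these letters read alike on both strands. The Ptger3 window lies on the plus strand at chr3:157566626-157566875, the Hpgd window on the plus strand at chr8:56294302-56294551, and the Ptgs2 window on the plus strand at chr1:150099781-150100030.
Ptger3: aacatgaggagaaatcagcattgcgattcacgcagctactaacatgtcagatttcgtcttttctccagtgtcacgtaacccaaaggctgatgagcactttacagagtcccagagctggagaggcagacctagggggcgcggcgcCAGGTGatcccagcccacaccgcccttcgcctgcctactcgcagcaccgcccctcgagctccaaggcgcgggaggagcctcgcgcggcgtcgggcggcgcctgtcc
Hpgd: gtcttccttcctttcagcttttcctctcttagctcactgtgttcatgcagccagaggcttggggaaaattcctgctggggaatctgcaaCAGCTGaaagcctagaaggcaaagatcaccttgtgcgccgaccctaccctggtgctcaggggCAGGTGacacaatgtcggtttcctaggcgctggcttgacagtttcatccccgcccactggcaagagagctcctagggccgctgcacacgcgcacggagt
Ptgs2: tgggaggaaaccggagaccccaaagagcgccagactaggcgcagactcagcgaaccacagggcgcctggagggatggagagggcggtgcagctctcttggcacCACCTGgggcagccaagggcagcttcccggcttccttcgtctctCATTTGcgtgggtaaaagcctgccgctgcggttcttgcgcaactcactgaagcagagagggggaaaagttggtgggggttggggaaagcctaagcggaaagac

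The letters CANNTG were found 1 time in the Ptger3 window and 2 times in each of the Hpgd and Ptgs2 windows, and 66.2% of 32851 promoter windows of the same length hold them. The CRE letters TGACGTCA (held by 1.55% of windows), the AP-1 letters TGANTCA (6.75%) and the TATA letters TATAAA (12.4%), searched on both strands, were not in the windows of the 9 matched genes. The TEAD letters CATTCC, searched on both strands and held by 12.6% of windows, were found 1 time in the Ptges and 1 time in the Ptges2 window. Such matches describe letters and were not linked to expression.

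Barcodes with at least 500 genes, at least 1000 unique molecular identifiers (UMIs, each standing for 1 captured RNA molecule) and at most 20% mitochondrial UMIs were kept, which left 2300 cells of 12364 in set 1 and 1766 of 9442 in set 2, with medians of 29872 and 28759 UMIs. The 29 barcode sequences that occur with both suffixes were kept in both sets in 0 cases. Cells were put in classes by marker genes that include none of the 10. The enteroendocrine class (hormone-secreting cells) held 273 and 269 cells of sets 1 and 2, the enterocyte class (absorptive cells) 126 and 185, the goblet or Paneth class 32 and 14, and the revival-like class (cells with injury-response markers such as Anxa1, Clu and Msln) 14 and 26. Cells in division held 1252 and 752. A class with crypt markers that did not pass the marker rule for division held 94 and 189 and is called other crypt cells. It was led by Ung, Nupr1 and Cyr61 rather than by stem cell genes, and Cdt1, Mcm3, Mcm2 and Mcm4 were also among its leading genes. Its median of division markers was 5.18 and 4.81 UMIs per 10000, against 20.3 and 18.7 in dividing cells and 1.51 and 0.977 in enterocytes. Tuft cells numbered 9 and 2, cells of several gates 32 and 34, and cells of no gate 468 and 295, whose median depth was only 1795.5 and 11632 UMIs. The stromal genes Col3a1, Dcn and Lum and the immune gene Ptprc were at 0 UMIs in the kept cells, and the 8 mesenchymal markers summed to 25 and 26 UMIs. The 8 immune markers summed to 704 and 518 UMIs, of which 353 and 257 were of Kit, and the 5 endothelial markers to 305 and 165 UMIs, of which 302 and 165 were of Pecam1.

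Across all kept cells, levels were compared between the sets as CPM (UMIs of the gene per 1000000 UMIs of the cells summed). A gene was called apart where its CPM differed by 1.5-fold or more and the exact Poisson 95% intervals, which cover counting error only, did not overlap. By this rule 3 of the 10 genes were higher in set 2 (Ptgs2, Hpgd and Abcc4), against 4.25% of the 15474 genes with 10 or more UMIs, and 1 was higher in set 1 (Ptger3), against 2.93%. The other 6 were not apart. As log2 ratios of set 2 over set 1 with 1 CPM added, the median was 0.24 for the 10 genes and 0.03 for all 15474. In such sums, fewer cells of a type and less RNA per cell cannot be told apart, so the values within classes follow gene by gene.

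**Figure D1:**
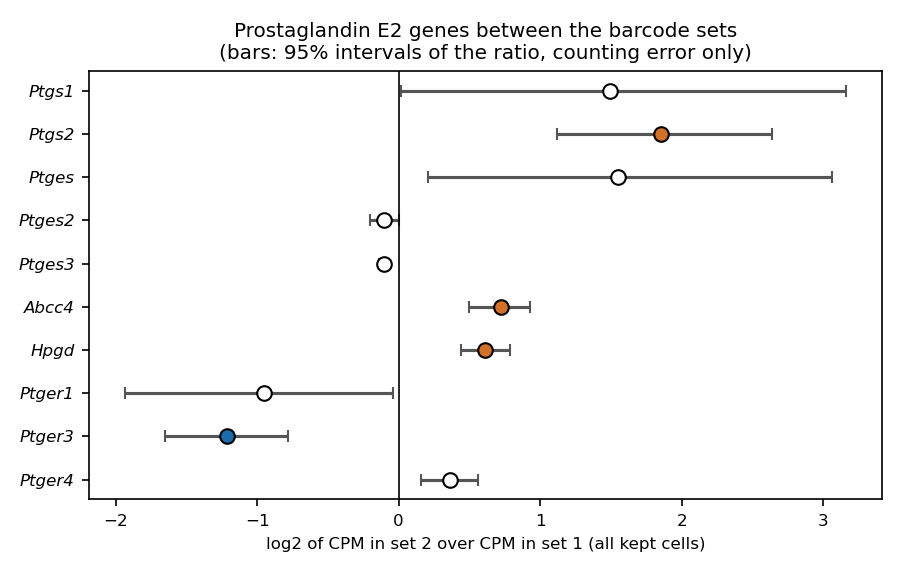
Log2 ratio of CPM in set 2 over set 1 for each gene over all kept cells (x axis), with 95% intervals for counting error; filled points were called apart, orange where set 2 and blue where set 1 was higher. Ptgs2, Abcc4 and Hpgd lie to the right with log2 ratios of 1.85, 0.72 and 0.61, and Ptger3 to the left at -1.21.

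Within classes, a gene was called higher where its CPM was 2-fold or more that of all other kept cells in each of the sets. The enteroendocrine class had 2 such genes (Ptger3 and Abcc4), where 28.6% of all tested genes met the rule, and the enterocyte class had 1 (Hpgd), where 6.91% did. The revival-like class had 4 (Ptgs1, Ptgs2, Ptges and Abcc4), where 5.70% did. Ptgs1, Ptgs2 and Ptges reached the minimum of 10 UMIs only with the UMIs of this class, and the Ptgs1 call rested on 1 UMI in set 1. The count of 4 in the revival-like class is therefore not to be read against that share. Without the 3 highest cells of each gene in each set, Ptgs2 was the 1 of these 4 still called there, and the Abcc4 call there was also lost with the mean of each cell's CPM. Ptges was called higher in enteroendocrine cells with the mean of each cell's CPM, with no mitochondrial limit and without the 3 highest cells, and Ptgs1 was called there without the 3 highest cells. No gene of the 10 was called higher in goblet or Paneth cells, dividing cells, other crypt cells or cells of no gate, where 2.96%, 2.62%, 0.530% and 1.17% of all genes were.

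**Figure D2:**
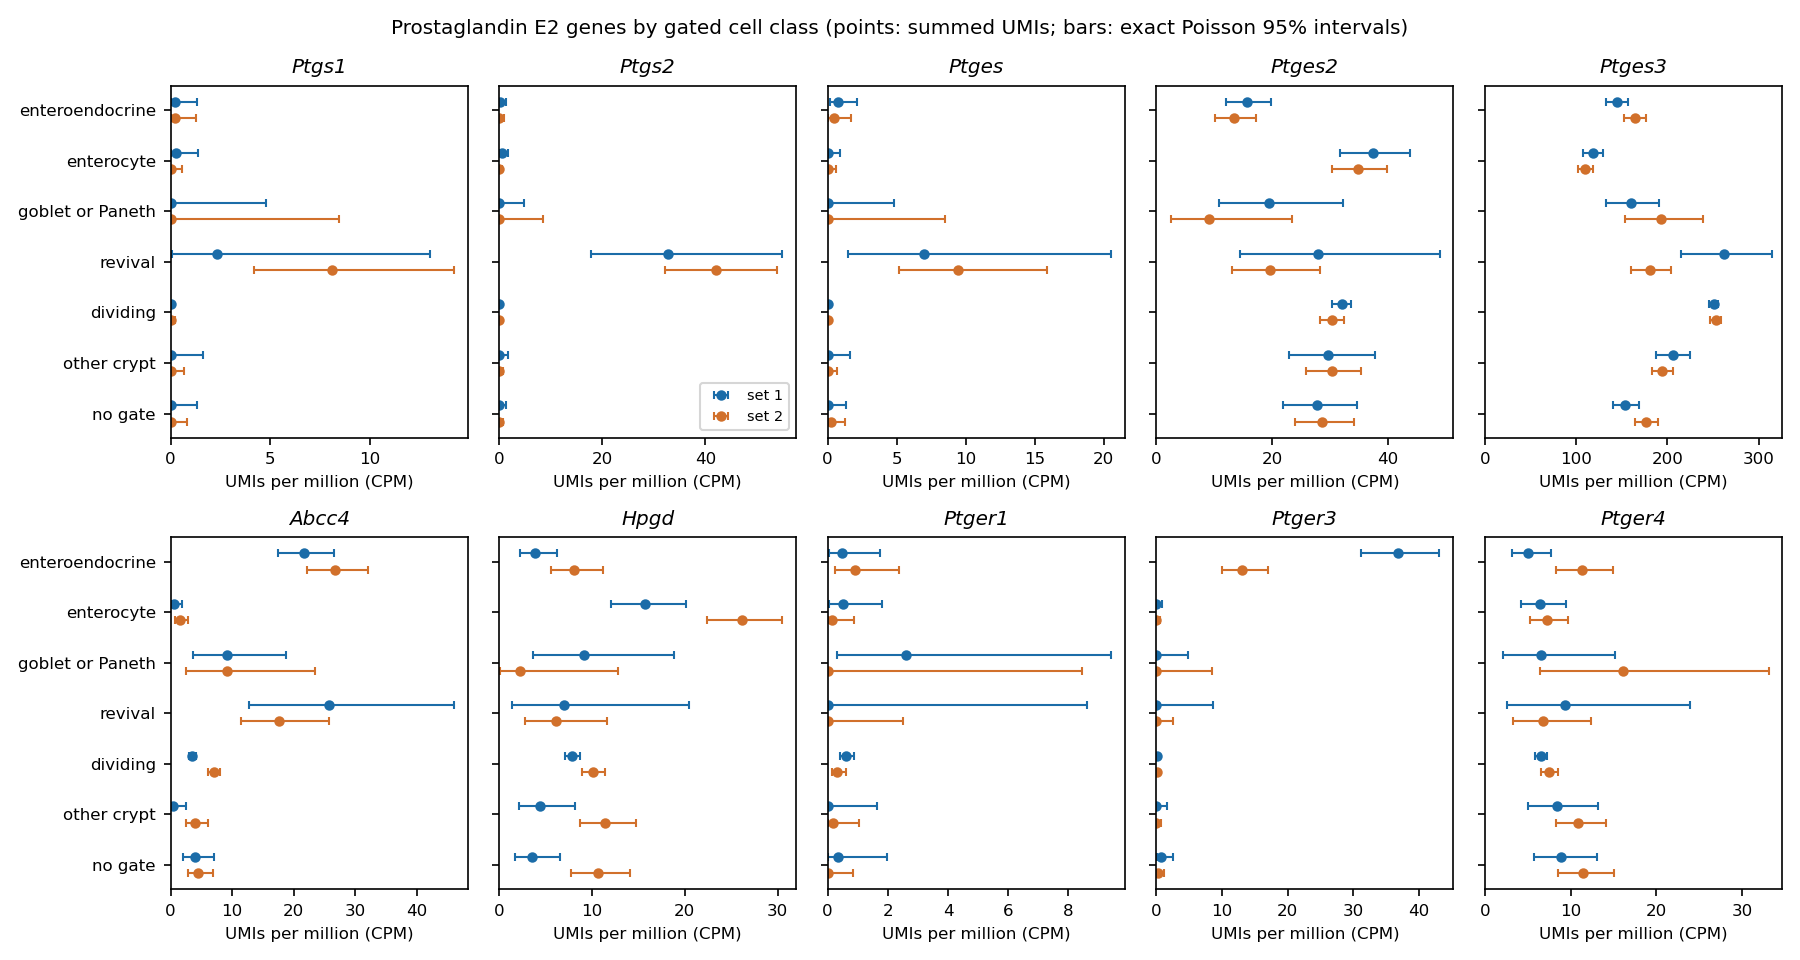
CPM of each gene (x axis, from 0, with its own scale) in each gated class (y axis) for set 1 in blue and set 2 in orange, with exact Poisson 95% intervals. Ptger3 stands at 36.8 and 13.1 CPM in enteroendocrine cells and near 0 elsewhere, Ptgs2 at 32.7 and 42.0 CPM in revival-like cells, and Hpgd at 15.7 and 26.2 CPM in enterocytes.

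The cyclooxygenases and the inducible synthase Ptges were found in very few cells. Ptgs2, the inducible cyclooxygenase, had 21 UMIs in 9 cells of set 1 and 63 UMIs in 6 cells of set 2, or 0.341 CPM (interval 0.211 to 0.521) and 1.23 CPM (0.947 to 1.58). Revival-like cells held 14 of the 21 UMIs in 3 of 14 cells and 62 of the 63 in 5 of 26 cells. Their levels in sets 1 and 2, 32.7 CPM (interval 17.9 to 54.9) and 42.0 CPM (32.2 to 53.8), had overlapping intervals. Outside this class, 6 cells of set 1 and 1 of set 2 had 1 or 2 Ptgs2 UMIs each.

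The excess of Ptgs2 in set 2 rested on single cells: 3 cells held 59 of its 63 UMIs, with 29, 21 and 9 UMIs. In set 1 the highest cell had 11 UMIs. Without the 3 highest cells of each set the log2 ratio of set 2 over set 1, with 1 CPM added, went from 0.74 to -0.03, and Ptgs2 was no longer called apart. The revival-like class itself was 0.609% of kept cells in set 1 (Clopper-Pearson 95% interval 0.333 to 1.02) and 1.47% in set 2 (0.964 to 2.15).

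Thinned to 5000 UMIs a cell, the share of revival-like cells with a Ptgs2 UMI was 13.7% in set 1 and 9.32% in set 2, against 21.4% and 19.2% at full depth. In dividing cells, of greater depth than the revival-like cells in set 1 (medians of 37057 and 27907.5 UMIs), the full-depth share was 0.240% in set 1. In set 2, where revival-like cells were deeper (57299.5 against 37566.5 UMIs), it was 0.133%. Most revival-like cells had no Ptgs2 UMI.

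Ptgs1, the constitutive cyclooxygenase, had 6 UMIs in 5 cells of set 1 and 14 UMIs in 4 cells of set 2. In set 2 the UMIs lay mostly in 2 revival-like cells, with 7 and 5 UMIs. In set 1 the tuft class, chemosensory cells known for their eicosanoid enzymes, held 3 of the 6 UMIs in 2 of its 9 cells, and 1 revival-like cell held 1 UMI. The 2 tuft cells of set 2 had no Ptgs1 UMI.

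Ptges, the synthase usually induced together with Ptgs2, had 7 UMIs in 7 cells of set 1 and 17 UMIs in 5 cells of set 2. Revival-like cells held 3 and 14 of these UMIs, at 7.01 CPM (set 1) and 9.47 CPM (set 2), and 1 cell of set 2 held 11 of them. Enteroendocrine cells held 3 and 2 UMIs, in 1 UMI per cell, so that this class was not at 0. Enterocytes and dividing cells had 0 Ptges UMIs in both sets.

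The UMIs of these 3 genes shared a cell in 5 cases. Of 15 cells with a Ptgs2 UMI, 12 with Ptges and 9 with Ptgs1 in both sets together, 1 had Ptgs2 with Ptges, 2 had Ptgs2 with Ptgs1, 2 had Ptges with Ptgs1 and 0 had all 3. At so few UMIs a cell, a missing UMI does not show a missing transcript. The highest Ptgs2 cell of set 2, with 29 UMIs, had 147 Anxa1 and 453 Areg UMIs and 0 of Ptgs1 and Ptges. The cell with 11 Ptges and 9 Ptgs2 UMIs had 147 Crct1 and 44 Anxa1 UMIs.

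**Figure D3:**
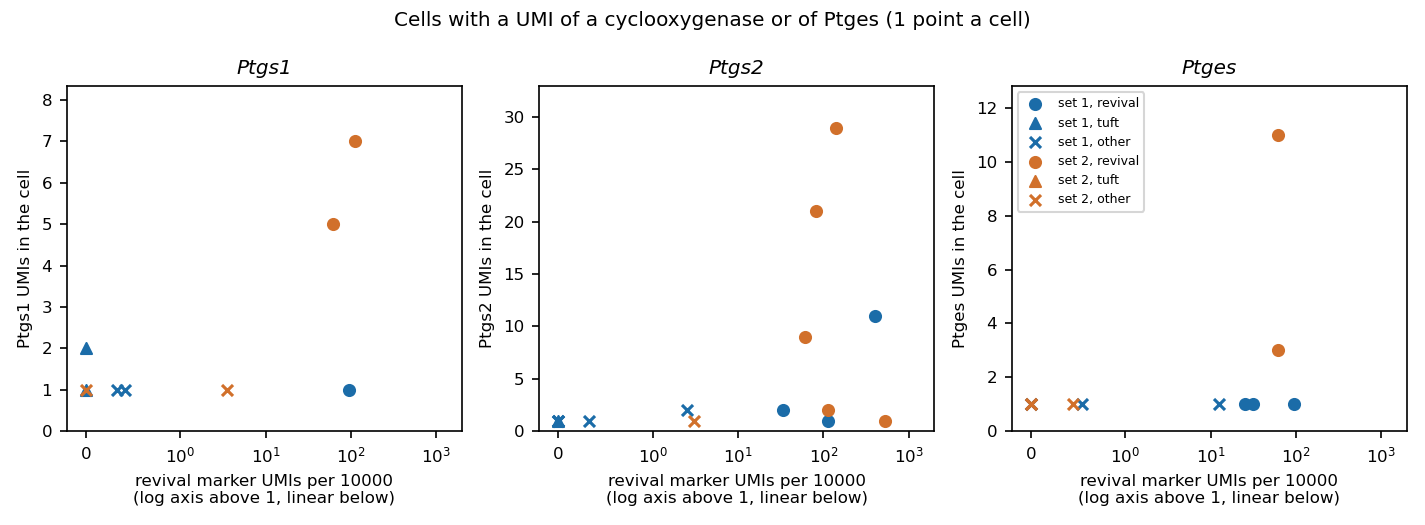
Each point is a cell with at least 1 UMI of Ptgs1, Ptgs2 or Ptges: the UMIs of that gene (y axis) against the summed UMIs of Anxa1, Anxa3, Clu, S100a6, Ly6a and Msln per 10000 (x axis, log above 1), with set by colour and class by symbol. Every cell with more than 2 UMIs of any of the 3 genes is a revival-like cell, and the highest Ptgs2 cells, with 29 and 21 UMIs, have 142 and 81.0 marker UMIs per 10000.

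The other synthases were found in all classes with 10 or more cells in each set. Ptges2, a synthase bound to membranes, stood in sets 1 and 2 at 30.5 CPM (29.1 to 31.9) and 28.5 CPM (27.0 to 30.0). Enteroendocrine cells were low, with 15.6 CPM in set 1 and 13.4 CPM in set 2, which was 0.495 and 0.447 of the level in the other cells, and Ptges2 was the only 1 of the 10 called lower in that class in both sets (12.4% of all genes were). Goblet or Paneth cells had 19.5 CPM (10.9 to 32.2) and 9.19 CPM (2.50 to 23.5) from 15 and 4 UMIs and were not called. Enterocytes had 37.4 and 34.9 CPM and dividing cells 32.0 and 30.3 CPM.

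Ptges3, which encodes the cytosolic synthase also known as the HSP90 cochaperone p23, stood in sets 1 and 2 at 226 CPM (222 to 230) and 211 CPM (207 to 215). Its level was 251 and 253 CPM in dividing cells, 206 and 194 CPM in other crypt cells, 145 and 165 CPM in enteroendocrine cells and 119 and 110 CPM in enterocytes. Dividing cells were thus 1.65 and 1.58 times the other cells and enterocytes 0.508 and 0.491 times. Revival-like cells were at 262 CPM in set 1 and 181 CPM in set 2. None of the classes reached the 2-fold rule.

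Abcc4, the exporter, had 309 UMIs in set 1 and 421 in set 2, at 5.01 CPM (4.47 to 5.61) and 8.24 CPM (7.47 to 9.06). Enteroendocrine cells were high in both sets, with 21.6 CPM (90 UMIs in 67 of 273 cells) and 26.7 CPM (116 UMIs in 90 of 269), or 5.68 and 4.10 times the other cells. Revival-like cells had 25.7 and 17.6 CPM, or 5.28 and 2.21 times the other cells, from 11 and 26 UMIs. Levels were low in enterocytes, with 2 UMIs (0.499 CPM) and 10 UMIs (1.58 CPM), and in other crypt cells of set 1, with 1 UMI (0.444 CPM). The enterocytes' median depth was more than that of enteroendocrine cells (33110.5 against 14292 UMIs in set 1).

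Among the classes, Abcc4 was called apart between the sets in dividing cells, with 3.56 CPM in set 1 and 7.01 CPM in set 2, a log2 ratio of 0.98 (0.67 to 1.29). It was the 1 gene of the 10 called apart there, against 3.08% of genes higher in set 2 in that class. In other crypt cells it had 1 UMI in set 1 and 21 UMIs in set 2, at 0.444 and 3.94 CPM; the log2 ratio was 3.15 (0.51 to 8.52), but the intervals of the levels overlapped and it was not called. In the enteroendocrine class as a whole Abcc4 was not apart, at a log2 ratio of 0.30 (-0.11 to 0.72), nor was it in its enterochromaffin cells, at 0.79 (0.21 to 1.38). Whether the classes differ in this ratio was not tested.

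Within enteroendocrine cells, Abcc4 in cells with Neurog3, the transcription factor of enteroendocrine progenitors, stood at 55.3 CPM in set 1 (19 UMIs in 11 of 28 cells) and 24.7 CPM in set 2 (4 UMIs in 3 of 14). Enterochromaffin cells, which make serotonin, had 15.7 and 27.2 CPM, and cells led by a peptide hormone had 33.7 and 26.9 CPM. All 3 subtypes met the 2-fold rule over other kept cells in both sets, as 14.0%, 27.3% and 16.8% of all genes did. Neurog3 cells were thus the highest subtype in set 1 and not in set 2, but its interval in set 1 (33.3 to 86.4) overlapped that of the peptide hormone cells (21.8 to 49.8), and the intervals of all 3 subtypes overlapped in set 2.

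Hpgd, the enzyme that inactivates prostaglandin E2, had 479 UMIs in set 1 and 607 in set 2, at 7.77 CPM (7.09 to 8.50) and 11.9 CPM (10.9 to 12.9). Enterocytes were highest in both sets, with 15.7 CPM (63 UMIs in 36 of 126 cells) and 26.2 CPM (166 UMIs in 87 of 185). This was 2.18 times the other cells in set 1 (1.64 to 2.84) and 2.66 times in set 2 (2.21 to 3.19). Dividing cells had 7.83 and 10.1 CPM, and enteroendocrine cells 3.85 and 8.06 CPM.

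The enterocyte call for Hpgd was close to the 2-fold line. It was lost without the 5% of cells with the most UMIs and without the 3 cells with the most Hpgd UMIs of each set, when the log2 ratio in set 1, with 1 CPM added, fell from 1.03 to 0.83 and to 0.65; the ratio stayed above 0 in each alternative run. Of the enterocytes, 28.6% in set 1 and 47.0% in set 2 had an Hpgd UMI, against 5.86% and 9.67% of enteroendocrine cells. Thinned to 5000 UMIs, the shares were 7.13% and 11.7% in enterocytes and 2.02% and 3.08% in enteroendocrine cells.

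Hpgd was called higher in set 2 within enterocytes, other crypt cells and cells of no gate, where 1.60%, 1.77% and 1.36% of genes were. In other crypt cells it stood at 4.44 CPM in set 1 (10 UMIs) and 11.4 CPM in set 2 (61 UMIs), and in enterocytes the log2 ratio was 0.74 (0.31 to 1.18). In dividing cells, the largest class, the log2 ratio was 0.37 (0.14 to 0.60), under the 1.5-fold line. Enterocytes were also a larger part of set 2, 10.5% of kept cells against 5.48% in set 1. With a mitochondrial limit of 10% in place of 20%, Hpgd was no longer called apart over all kept cells.

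Ptger3, which encodes the EP3 receptor, was nearly restricted to enteroendocrine cells. It had 173 UMIs in 80 cells of set 1 and 62 UMIs in 37 cells of set 2, at 2.81 CPM (2.40 to 3.26) and 1.21 CPM (0.930 to 1.56). Enteroendocrine cells held 153 of the 173 and 57 of the 62 UMIs, at 36.8 CPM and 13.1 CPM, which was 106 times (66.1 to 178) and 123 times (49.6 to 392) the level in the other cells. Cells of several gates held 15 and 2 more UMIs.

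Enterocytes, goblet or Paneth cells, revival-like cells and other crypt cells had 0 Ptger3 UMIs in both sets. For the 126 and 185 enterocytes, 3 UMIs of the class total would be 0.749 and 0.473 CPM, and the exact Poisson 95% intervals of the counts of 0 reach 0.921 and 0.582 CPM. Dividing cells had 3 and 2 UMIs, at 0.0647 and 0.0719 CPM, with 0.240% and 0.266% of cells having a UMI, against 24.9% and 11.9% of enteroendocrine cells whose median depth was lower (14292 against 37057 UMIs in set 1). Thinned to 5000 UMIs, 12.5% and 4.53% of enteroendocrine cells had a Ptger3 UMI, and 0.0282% and 0.0330% of dividing cells. Per 1000 UMIs of Chgb, an enteroendocrine marker, dividing cells had 1.42 Ptger3 UMIs (0.293 to 4.15) in set 1 and enteroendocrine cells 0.920 (0.780 to 1.08). In set 2 the values were 1.34 (0.162 to 4.85), from 2 UMIs, and 0.360 (0.273 to 0.466).

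Within the enteroendocrine class Ptger3 was called higher in set 1, with a log2 ratio of set 2 over set 1 of -1.49 (-1.95 to -1.04), where 3.05% of genes were. Among the calls between sets for the 10 genes in any class, the widest gap was that of Ptger3 in enterochromaffin cells: 37.2 CPM in set 1 (30.4 to 45.1), from 104 UMIs in 48 of 185 cells, and 4.75 CPM in set 2 (2.37 to 8.49), from 11 UMIs in 6 of 151 cells. The log2 ratio of set 2 over set 1 was -2.97 (-4.02 to -2.07), a 7.84-fold difference, and 2.25% of 11670 genes were called higher in set 1 in this subtype. The gap did not rest on a few cells of set 1, where 25 cells had 2 or more Ptger3 UMIs and the highest had 7. Without the 3 highest cells of each set the levels were 30.8 and 1.34 CPM.

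The same enterochromaffin cells had similar depth in both sets, with medians of 14277 and 14074 UMIs, and 4 of their marker genes were not lower in set 2. Chgb stood at 53868 and 59808 CPM, Tph1, the enzyme that starts serotonin synthesis, at 1359 and 2009 CPM, Lmx1a at 215 and 274 CPM, and Chga at 7172 and 11875 CPM. Other genes were called higher in set 1 in the same cells, as Ptger3 was: Mgll at 147 and 53.5 CPM, Pla2g2f at 165 and 92.8 CPM and Alox15 at 19.0 and 7.77 CPM.

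Peptide hormone cells had Ptger3 at 49.9 CPM in set 1 (37 UMIs in 14 of 42 cells) and 24.7 CPM in set 2 (45 UMIs in 25 of 101), with intervals of 35.1 to 68.8 and 18.0 to 33.0. It was called higher in set 1, where 1.52% of genes were. Cells led by Gip, the incretin of K cells, had 174 CPM in set 1 (28 UMIs in 7 of 10 cells) and 33.9 CPM in set 2 (8 UMIs in 6 of 16), and cells led by Cck had 16.1 CPM (9 UMIs in 7 of 31) and 23.4 CPM (34 UMIs in 18 of 77). The Gip-led cells were thus high in set 1, and the intervals of the Cck-led cells overlapped between the sets. Without the 3 highest cells of each set, the peptide hormone cells stood at 22.2 and 18.2 CPM, so the excess of set 1 in this subtype rested largely on 3 cells.

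**Figure D4:**
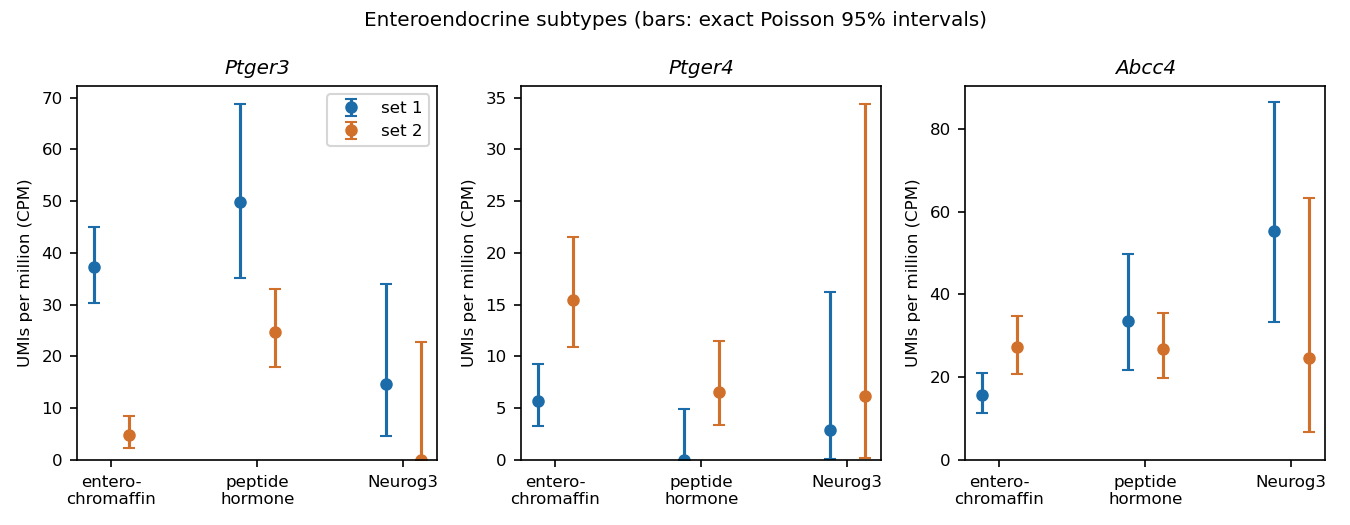
CPM (y axis, from 0) of Ptger3, Ptger4 and Abcc4 in enterochromaffin cells, peptide hormone cells and Neurog3 cells, set 1 in blue and set 2 in orange, with exact Poisson 95% intervals. In enterochromaffin cells Ptger3 stands at 37.2 CPM in set 1 and 4.75 CPM in set 2, and Ptger4 at 5.72 and 15.5 CPM.

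Ptger4, which encodes the EP4 receptor, had UMIs in each of the larger classes. It had 406 UMIs in 326 cells of set 1 and 432 UMIs in 330 cells of set 2, at 6.59 CPM (5.96 to 7.26) and 8.45 CPM (7.67 to 9.29). These intervals do not overlap; the 1.28-fold difference was under the 1.5-fold line and was called with a line of 1.2-fold. In the enteroendocrine, enterocyte, goblet or Paneth, revival-like, dividing, other crypt and no-gate classes, the levels ran from 5.05 CPM in enteroendocrine cells of set 1 to 16.1 CPM in goblet or Paneth cells of set 2, the latter from 7 UMIs. Dividing cells had 6.52 and 7.48 CPM, enterocytes 6.49 and 7.26 CPM and other crypt cells 8.43 and 10.9 CPM. No class reached 2-fold over the others in both sets. No cell type known to lack Ptger4 was at hand as a background, so these levels were not separated from free RNA; barcodes that failed the cell filter had 11.01 and 16.78 CPM of non-mitochondrial UMIs, against 7.30 and 9.36 CPM in kept cells.

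Between the sets, Ptger4 was called apart in enteroendocrine cells, at 5.05 CPM in set 1 (21 UMIs) and 11.3 CPM in set 2 (49 UMIs), where 1.16% of genes were called higher in set 2, and within them in enterochromaffin cells, at 5.72 and 15.5 CPM (0.917% of genes). The log2 ratio in enterochromaffin cells was 1.44 (0.55 to 2.39), opposite in sign to that of Ptger3. Goblet or Paneth cells had a log2 ratio of 1.30 (-0.57 to 3.30) from 5 and 7 UMIs and were not called, and whether the classes differ in this ratio was not tested. Peptide hormone cells had 0 Ptger4 UMIs in 42 cells of set 1 and 12 UMIs in 101 cells of set 2, at 0 CPM (0 to 4.97) and 6.58 CPM (3.40 to 11.5), with overlapping intervals. Ptger3 and Ptger4 were found in the same enteroendocrine cell in 5 cases in set 1, of 68 and 15 cells, and in 4 cases in set 2, of 32 and 35 cells.

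Ptger1, which encodes the EP1 receptor, had 35 UMIs in 35 cells of set 1 and 15 UMIs in 15 cells of set 2, never more than 1 in a cell. Dividing cells held 28 of the 35 and 9 of the 15, or 80.0% and 60.0%, where they held 75.2% and 54.4% of all UMIs. Its level of 0.568 and 0.293 CPM had overlapping intervals (0.396 to 0.790 and 0.164 to 0.484). Ptger2, the remaining receptor gene of the lipid, was not detected, with 0 UMIs among 2300 and 1766 cells. For it, 3 UMIs of the set's total would be 0.049 and 0.059 CPM, and the exact Poisson 95% intervals reach 0.0599 and 0.0722 CPM.

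The genes whose levels over 18 points (9 classes or enteroendocrine subtypes in each of the 2 sets) were most like each of the 6 members with 100 or more UMIs (Ptgs1, Ptgs2, Ptges and Ptger1 were left out) were named by Pearson's r of log2(CPM + 1) among 10921 genes. The points share the matrix and its depth, so r is given as a description. Ptger3 was nearest to Rgs4, a regulator of G protein signalling (r = 0.99), Pkia, an inhibitor of protein kinase A (0.97), and Galr1, a galanin receptor (0.96). In enterochromaffin cells of sets 1 and 2, Rgs4 stood at 18.6 CPM (13.9 to 24.4) and 5.61 CPM (2.99 to 9.59); these levels are among the points by which Rgs4 was chosen. Galr1 stood at 7.15 and 7.33 CPM there and Pkia at 4.29 and 3.88 CPM, with overlapping intervals. Abcc4 was nearest to Atxn10, Mid1ip1 and Macf1 (0.93 each), Ptges2 to Ndufb5, a subunit of respiratory complex I (0.95), Idh3b (0.93) and Hscb (0.92). Ptges3 was nearest to Cpsf2 (0.88), Pabpc4 (0.87) and Wdr77 (0.86), Ptger4 to Abcd4 (0.87), BC024978 (0.85) and Gnptab (0.82), and Hpgd to Tma7 (0.81), P2ry1 and Chchd2 (0.76 each).

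Other genes of the pathway came from lists chosen by function. Their counts between the sets are to be read against the 4.25% of all tested genes that were higher in set 2 and the 2.93% that were higher in set 1. Of the genes for the release of arachidonic acid, 12 had 10 or more UMIs; 0 were higher in set 2 and 2 in set 1 (against 2.93%), the phospholipase gene Pla2g2f (11.3 and 7.06 CPM in sets 1 and 2) and the monoacylglycerol lipase gene Mgll (11.6 and 5.17 CPM). Both were mostly in enteroendocrine cells, with 587 of 696 and 304 of 361 UMIs of Pla2g2f (141 and 70.0 CPM) and 531 of 713 and 197 of 264 UMIs of Mgll (128 and 45.4 CPM), and both were called higher in set 1 there too. The list's median log2 ratio, with 1 CPM added, was -0.01 against 0.03 over all genes. Pla2g4a, the cytosolic phospholipase that feeds cyclooxygenases, was called higher in revival-like cells, with 18.7 CPM in set 1 against 5.95 CPM in the other cells and 12.2 CPM in set 2 against 4.90 CPM; Pla2g5 was also called there, on 1 UMI in set 2. Enteroendocrine cells were called higher for Pla2g2f, Mgll, Plcb1 and Pla2g6 (20.2 and 24.4 CPM), enterocytes for Pla2g12b (43.2 and 42.0 CPM), goblet or Paneth cells for Pla2g10, on 1 UMI in set 2, and cells of no gate for Pla2g4c, on 3 and 4 UMIs. Pla2g4b had 0 UMIs.

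Of 8 other prostanoid synthases with 10 or more UMIs, 3 were higher in set 2 (against 4.25% of all genes), namely the aldo-keto reductase gene Akr1b8 (7.74 and 26.6 CPM) and the carbonyl reductase genes Cbr1 (257 and 403 CPM) and Cbr3 (122 and 242 CPM), and 0 in set 1; the median log2 ratio on the same scale was 0.32. Hpgds, the prostaglandin D synthase, was called higher in enteroendocrine cells (5.53 and 9.90 CPM) and in revival-like cells (7.01 and 12.2 CPM, from 3 and 18 UMIs). Akr1b8 was called higher in revival-like cells, with 107 and 103 CPM, Fam213b in enterocytes, with 204 and 245 CPM, and Tbxas1 in goblet or Paneth cells, on 2 and 3 UMIs.

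Of 7 genes for uptake and breakdown, 0 were higher in set 1. Slco2a1, the prostaglandin transporter that brings the lipid into cells, was called higher in enteroendocrine cells, with 59.9 CPM in set 1 against 2.77 CPM in the other cells and 74.4 CPM in set 2 against 3.08 CPM. Slco4a1 (7.21 and 6.91 CPM) and Slco3a1 (2 and 4 UMIs) were also called there.

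Of 6 receptor genes for other prostanoids and EP2, 4 had 0 UMIs (Ptger2, Ptgdr, Ptgdr2 and Ptgfr) and Tbxa2r was the only 1 with 10 or more UMIs, 6 in set 1 and 8 in set 2; it was called higher in enteroendocrine cells on 3 and 2 UMIs. In the leukotriene arm, 8 genes had 10 or more UMIs, and Alox5ap and Alox15 were higher in set 1 (0.795 and 0.313 CPM, 1.82 and 0.685 CPM), against 2.93% of all genes; 0 were higher in set 2. Both were called higher in enteroendocrine cells, and Ggt1 (61.9 and 34.4 CPM), Ltc4s (9.99 and 8.68 CPM), Ltb4r1 and Ltb4r2 in enterocytes; Alox12 and Cysltr1 had 0 UMIs. Of 23 genes of cyclic AMP signalling and the G proteins of these receptors, 1 was higher in set 2, Gnai1 (1.40 and 4.07 CPM), a share near the 4.25% of all genes, and 0 in set 1. In enteroendocrine cells 14 of those 23 were called higher, against 28.6% of all genes: Gnas, Gnai1, Gnai2, Gnaq, Adcy3, Adcy9, Prkacb, Prkar1a, Pde3b, Pde4a, Pde4d, Rapgef3, Rapgef4 and Arrb2. Gna11 was called higher in enterocytes, and Prkar2b in goblet or Paneth and revival-like cells. Gnai1, which encodes an inhibitory G protein subunit, had 13.9 and 35.5 CPM in enteroendocrine cells against 0.487 and 1.15 CPM in the other cells. Its level was 64.7 and 81.1 CPM in peptide hormone cells and 1.79 and 1.29 CPM in enterochromaffin cells, the subtype with the wide gap in Ptger3.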

How the data were processed

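The deposited matrix holds whole-number UMI counts per gene and barcode, with no normalization, per the file headers. Per the submitters' processing notes, Cell Ranger 3.1.0, bcl2fastq 2.20.0 and STAR 2.7.3a were used; the genome build is not given in the sources used here. The 10 genes, the marker lists and the pathway lists were chosen with earlier results of these data known, and gate thresholds were set after marker distributions had been seen.

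Cells were kept at 500 or more genes, 1000 or more UMIs and 20% or less mitochondrial UMIs. A class needed a number of its markers detected and a share of marker UMIs per 10000: enteroendocrine 5 markers and 20, tuft 3 and 2, goblet 4 and 50, Paneth 3 and 50, enterocyte 6 and 100, revival 4 and 10, dividing 6 and 8, other crypt 5 and 5. Of the enteroendocrine cells, those with peptide hormones at 100 or more per 10000 were called peptide hormone cells, other cells with enterochromaffin markers at 20 or more enterochromaffin cells, and the rest with Neurog3 at 2 or more Neurog3 cells. Between 0.5 times the threshold and the threshold lay 107 and 54 cells of sets 1 and 2 for the enterocyte gate, 14 and 24 for the revival gate and 1 and 3 for the enteroendocrine gate. No doublet caller was run; cells of several gates stayed unassigned. All 10 genes passed the minimum of 10 UMIs.

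Counts were summed over cells and scaled to CPM; intervals (95%) are exact Poisson for CPM and Clopper-Pearson for shares. Intervals cover counting error only. With 1 sample there is no p-value, and cells are not replicates. All 10 genes are named by rule, and list genes where they were apart over all kept cells, were called higher in a gated class or had 0 UMIs; list calls within enteroendocrine subtypes are not all named, and a result of the uptake and breakdown list is not reported here. The calculations were tested on simulated counts (Python 3.11.15, numpy 2.4.6, scipy 1.17.1, pandas 2.3.3). Alternatives changed the cell filter, the mean, the gates, the folds, the pseudocount of 1 CPM and the cells left out.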

Additional observations from a re-analysis of the deposited data

Results flagged for a closer look

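Barcodes that failed the cell filter, for few genes, few UMIs or mitochondrial UMIs above 20%, enter no main comparison between sets or classes above. The exceptions are the Ptger4 background levels given with that gene and the alternative run with no mitochondrial limit. Among the non-mitochondrial UMIs of all failed barcodes, Ptger4 stood at 11.01 CPM in set 1 and 16.78 CPM in set 2. Kept cells had 7.30 and 9.36 CPM on the same scale, so failed barcodes had 1.51 and 1.79 times the kept level. It was the 1 gene of the 10 that was 1.5-fold or more above the kept cells in both sets. Ptger3 was lower there than in kept cells, at 0.298 and 0.247 times their level. No treatment or class was assigned to these barcodes, and their RNA quality's part in these values was not tested.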

How the results depend on the processing

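The number of the 10 genes apart between the sets was 4 and lay within 1.5 times of that under every alternative run for it, but the genes changed. Ptgs2 was not called with the mean of each cell's CPM or with only genes of 100 or more UMIs. It was also lost without the 5% of cells with the most UMIs and without the 3 highest cells. Hpgd was not called with a mitochondrial limit of 10%, and Ptger4 was added with a fold of 1.2. Ptger3, lower in set 2, and Abcc4, higher in set 2, kept their sign in 9 of 9 alternatives each. The number higher in a class was 6, and fell to 3 with a mitochondrial limit of 10%, which left 8 revival-like cells in set 1 and so removed that class, to 3 without the 5% of cells with the most UMIs, and to 3 with only genes of 100 or more UMIs, a rule that drops Ptgs1, Ptgs2 and Ptges. Ratios that had been called turned sign in these cases, all on log2 ratios with 1 CPM added: without the 3 highest cells of the gene in each set, Ptgs2 between the sets was -0.03, Ptgs1 in revival-like over other cells was -0.05 in set 1 and -0.03 in set 2, and Ptges there was -0.06 in set 2; without the 5% of cells with the most UMIs, Ptgs1 there was -0.06 and Ptges -0.09 in set 2. Of 90 set ratios of single genes under alternatives, 83 moved by less than the counting interval, 6 by more and 1, which had been called, turned sign; of 210 class ratios the numbers were 181, 24 and 5. Ratios not called also turned sign, in 5 cases between the sets (Ptgs1 from 0.22, down to -0.09, and Ptges from 0.26, down to -0.06) and 7 between classes (in goblet or Paneth cells, Ptger4 in set 1 from -0.01, up to 0.43, and Ptger1 in set 2 from -0.37 to 1.04). Leaving out barcode sequences that occur with both suffixes was added after seeing the data and left both counts at 4 and 6. No paired analysis was possible because both samples hold the same matrix and the labels give no shared replicate numbers. Depth limits Ptgs1, Ptgs2, Ptges and Ptger1, each with under 100 UMIs, to counts of cells.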
